A study of Mus musculus with 5 samples.

Results

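The C/EBP genes encode a small family of transcription factors with a basic leucine zipper, and their transcripts were followed here through sorted mouse bone marrow cells, from stem cells to granulocytes. The members were taken by name: Cebpa, Cebpb, Cebpd, Cebpe and Cebpg. Of these 5 genes, 4 were analysed (Cebpa, Cebpb, Cebpe and Cebpg) among 15287 genes of the count table, and Cebpd was not analysed here. The values are UMI counts (unique molecular identifiers, each marking 1 captured transcript) from 12893 single cells in 5 Chromium 3′ libraries. The cells came from untreated mice of 20 weeks, all of the strain Fgd5CreERT2/+Rosa26Tomato/+, in which the Fgd5 allele carries the inducible Cre together with a ZsGreen reporter. In 3 libraries (Lin-kit+ a, b and c, 11581 cells) the marrow was sorted for cells that lack lineage markers and carry c-kit, which takes in progenitors of most blood lineages. In 1 library (Fgd5+, 793 cells) the cells were also positive for the Fgd5 reporter, and in 1 (HSC-Fgd5+) they further had the surface phenotype of haematopoietic stem cells (HSCs: Sca1+, CD150+, CD48-).

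The libraries held between 2166655 and 36080242 UMIs, with medians from 3721 to 6567 UMIs per cell. Barcodes in the table name a library only by a suffix, and suffixes were matched to populations through the study's cell numbers, so each comparison between populations depends on that match. Labels of the 2 reporter-positive samples disagree on which had the full HSC gate. The number of mice is not given, and p-values therefore cover only the spread between libraries. The labels were checked against HSC markers. Procr, an HSC surface receptor, stood at 122 and 145 CPM (a gene's UMIs scaled to the library's total, the usual CPM) in the reporter-positive libraries and at 2.1 to 2.8 CPM in the Lin-kit+ libraries, and Cd48 stood at 6.24 and 1.85 CPM against 188 to 199 CPM. Of 12830 barcode sequences, 62 occurred in more than 1 library and 0 in both reporter-positive libraries. Lin-kit+ a stood apart in 1 respect: 2 clusters of cells, 1 monocyte-like with 193 cells and 1 early neutrophil-like with 103 of its 105 Lin-kit+ cells, came from that library alone or nearly so, at medians of 12260 and 10415 UMIs per cell. Values without these clusters, an alternative chosen after seeing the data, are given beside the results that they moved most.

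As background, C/EBP proteins bind DNA as dimers, with each other or with other leucine zipper proteins. Cebpa is required for the step from multipotent cells to granulocyte and monocyte progenitors and restrains their proliferation. Cebpb takes over in granulocyte production under stress and acts in monocytes and macrophages. Cebpe drives the late maturation of neutrophils and eosinophils and switches on the genes of secondary granules, and Cebpg has no activation domain of its own and pairs with other members and with Atf4 in the response to amino acid shortage and oxidative stress. In the mouse genome (mm10, GENCODE M21), Cebpa lies at chr7:35119293-35121928 on the plus strand and Cebpg at chr7:35046422-35056573 on the minus strand, 62.7 kb apart. Cebpb has a single exon at chr2:167688915-167690418 on the plus strand, and Cebpe has 2 exons at chr14:54710360-54712174 on the minus strand. Tmem189, a gene in the table, overlaps Cebpb on the opposite strand, and no gene in the table overlaps the other 3.

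Promoter windows were searched for the letters of a C/EBP site and are given before the values. The letters searched were TTGCNNAA and, on the other strand, TTNNGCAA, a strict form of the C/EBP site, in windows of 300 bases (250 before to 50 after a transcription start, RefSeq, GRCm38.p6); a stretch that matches both forms was counted once. Of 32851 windows, 10.8% held a match. Of the 13 Cebpe-dependent granule genes with a window (15 listed), 7 held one (Ear1, Ear2, Fcnb, Lcn2, Ltf, Mmp8 and Ngp), and of 9 early C/EBP target genes with a window (12 listed), 1 did (Ms4a3). Windows of Cebpa, Cebpb and Cebpg held no match, and a window for Cebpe was not used here. A match is a stretch of letters and not a measured binding site.

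Cebpa is shown because this factor opens the myeloid programme, and 4 granule genes (chosen after their values were seen) because they hold matches and their transcripts come up with Cebpe below. Capitals mark the matches, and all runs read 5′ to 3′ along the gene. The windows are chr7:35119043-35119342 (plus strand) for Cebpa, chr9:110419558-110419857 (plus) for Ngp, chr9:111019042-111019341 (plus) for Ltf, chr2:32387690-32387989 (minus) for Lcn2 and chr2:28084829-28085128 (minus) for Fcnb.
Cebpa: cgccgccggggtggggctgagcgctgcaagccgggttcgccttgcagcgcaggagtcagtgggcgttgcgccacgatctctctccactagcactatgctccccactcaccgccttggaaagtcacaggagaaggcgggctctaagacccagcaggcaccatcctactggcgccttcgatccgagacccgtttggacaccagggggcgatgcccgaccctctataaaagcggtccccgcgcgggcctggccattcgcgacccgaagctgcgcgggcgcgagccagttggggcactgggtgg
Ngp: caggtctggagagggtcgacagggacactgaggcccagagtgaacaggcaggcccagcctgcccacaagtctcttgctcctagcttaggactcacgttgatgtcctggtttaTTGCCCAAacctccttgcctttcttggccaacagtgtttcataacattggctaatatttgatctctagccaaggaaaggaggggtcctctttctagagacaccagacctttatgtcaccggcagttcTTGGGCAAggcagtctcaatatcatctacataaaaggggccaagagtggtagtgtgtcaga
Ltf: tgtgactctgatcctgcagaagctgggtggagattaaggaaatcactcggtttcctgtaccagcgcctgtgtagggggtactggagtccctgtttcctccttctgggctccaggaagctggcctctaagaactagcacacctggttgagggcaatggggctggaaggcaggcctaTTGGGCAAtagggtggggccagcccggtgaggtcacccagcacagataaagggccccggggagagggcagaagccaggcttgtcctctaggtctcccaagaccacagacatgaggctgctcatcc
Lcn2: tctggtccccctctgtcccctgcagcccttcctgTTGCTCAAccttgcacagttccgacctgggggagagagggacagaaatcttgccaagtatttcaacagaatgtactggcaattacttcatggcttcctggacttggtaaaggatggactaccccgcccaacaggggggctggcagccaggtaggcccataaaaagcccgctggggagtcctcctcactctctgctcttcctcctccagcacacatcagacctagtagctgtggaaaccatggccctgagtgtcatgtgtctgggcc
Fcnb: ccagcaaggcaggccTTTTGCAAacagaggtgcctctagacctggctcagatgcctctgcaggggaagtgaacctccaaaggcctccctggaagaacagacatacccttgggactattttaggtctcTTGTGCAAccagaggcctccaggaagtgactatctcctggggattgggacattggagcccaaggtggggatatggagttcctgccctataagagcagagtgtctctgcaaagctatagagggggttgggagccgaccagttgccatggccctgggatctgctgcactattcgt
Ngp and Fcnb each held 2 matches, 138 and 11 bases before the start in Ngp and 235 and 123 bases before it in Fcnb. Ltf held 1 match at 75 bases and Lcn2 1 at 216 bases before the start.

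To ask how the family differs between stem cells and the progenitor pool, counts summed per library were compared with edgeR's quasi-likelihood test over 11991 genes. Fgd5+ and HSC-Fgd5+ were taken as 1 group, although they are different gates with 1 library each and not replicates of a gate. The spread within that group, and the errors and p-values below, thus also hold the difference between the gates. Cebpa, Cebpb and Cebpe were lower in the reporter-positive libraries and Cebpg was not called. A large share of all genes was called in this comparison, 63.1% either way (30.4% lower and 32.7% higher), and 3 of 4 members called is to be read against that share. Without the TMM scaling, which sets most genes of the groups level, all log2 fold changes shifted up by a median of 0.54 and the calls split into 6586 higher and 1993 lower in place of 3921 and 3646, so the folds below are relative to the scaling. In bulk sums of this kind, fewer cells that express a gene and less transcript per cell cannot be told apart.

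Cebpa, the factor of myeloid commitment, gave 13.5, 12.5 and 9.23 CPM in Lin-kit+ a, b and c (mean 11.8 ± 2.24 CPM, SD, n = 3) and 0.720 and 0.462 CPM in Fgd5+ and HSC-Fgd5+, which are 3 UMIs and 1 UMI. All Lin-kit+ libraries lay above both reporter-positive libraries. The fitted log2 fold change was −4.71 ± 0.43 (SE), with an adjusted p of 9.56e-05 in edgeR's test, and the ratio of the mean CPM was 19.9.

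Cebpe, the factor of late granulocyte maturation, gave 251, 262 and 294 CPM in the Lin-kit+ libraries (mean 269 ± 22.2 CPM, SD, n = 3). It gave 5.28 CPM (22 UMIs) in Fgd5+ and 0 UMIs in HSC-Fgd5+, where 0 counts allow up to 1.38 CPM. The groups did not overlap, and the log2 fold change was −6.85 ± 0.47 (SE; adjusted p = 2.62e-05, edgeR). Most of what remained in Fgd5+ came from 2 cells with 10 Cebpe UMIs each. One of them lay in the early neutrophil-like cluster of Lin-kit+ a and held 222 Elane UMIs (neutrophil elastase), the other lay in a late neutrophil-like cluster and held 790 Ngp and 143 Ltf UMIs (granule proteins), and both had 0 UMIs of Procr and 0 of Fgd5. The HSC-like cells of Fgd5+, 779 of its 793 cells, together held 2 Cebpe UMIs (0.491 CPM). With the reporter-positive cells limited to HSC-like clusters, an alternative chosen after seeing the data, Cebpe stayed called with an adjusted p of 4.12e-07 (edgeR). Without the clusters of 1 library its log2 fold change was −7.75.

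Cebpb, the factor of stress granulopoiesis and macrophages, was sparse throughout, at 3.40, 5.25 and 4.49 CPM in the Lin-kit+ libraries (mean 4.38 ± 0.93 CPM, SD, n = 3) and 1.20 and 2.31 CPM (5 UMIs each) in Fgd5+ and HSC-Fgd5+. The groups did not overlap, but the 95% Poisson interval of HSC-Fgd5+ (0.749 to 5.39 CPM) covered all 3 Lin-kit+ values. The log2 fold change was −2.01 ± 0.40 (SE; adjusted p = 0.0039, edgeR), and without the Fgd5+ library it was −1.51 with an adjusted p of 0.064.

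Cebpg, the member without an activation domain, went the other way in its values. It gave 14.5, 12.3 and 10.9 CPM in the Lin-kit+ libraries (mean 12.6 ± 1.82 CPM, SD, n = 3) and 31.4 and 19.4 CPM in Fgd5+ and HSC-Fgd5+. Both reporter-positive libraries lay above all Lin-kit+ libraries in CPM, but the fitted difference of 0.54 ± 0.23 (log2, SE) did not pass the test (adjusted p = 0.073, edgeR). With library totals in place of TMM it was 1.08 and passed (adjusted p = 0.0036, edgeR). It also passed without Lin-kit+ a (0.61, adjusted p = 0.042, edgeR), without HSC-Fgd5+ (0.79, adjusted p = 0.019, edgeR) and without the clusters of 1 library (0.62, adjusted p = 0.028, edgeR), and without Fgd5+ it came to 0.08 (adjusted p = 0.82, edgeR). The sign of Cebpg was thus the same in each of these fits, while the call depended on scaling and on single libraries.

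**Figure D1:**
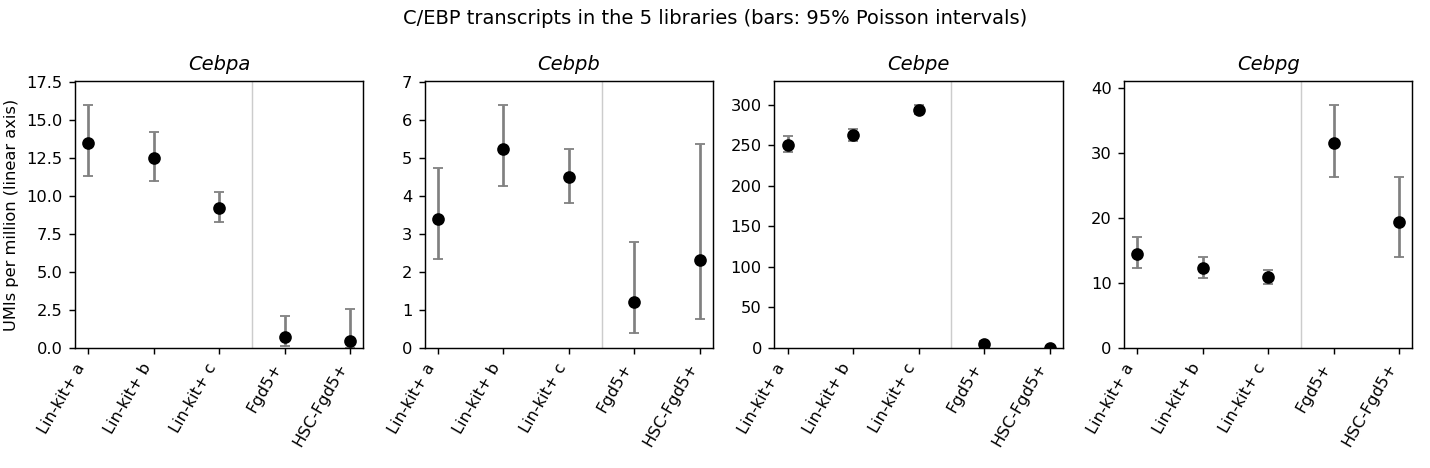
CPM (linear axis) of the 4 C/EBP genes in each library, with bars for the 95% Poisson interval, which covers counting error only. Cebpa and Cebpe sit near 0 in both reporter-positive libraries, and Cebpg sits at 31.4 and 19.4 CPM there against 10.9 to 14.5 CPM in the Lin-kit+ libraries.

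**Figure D2:**
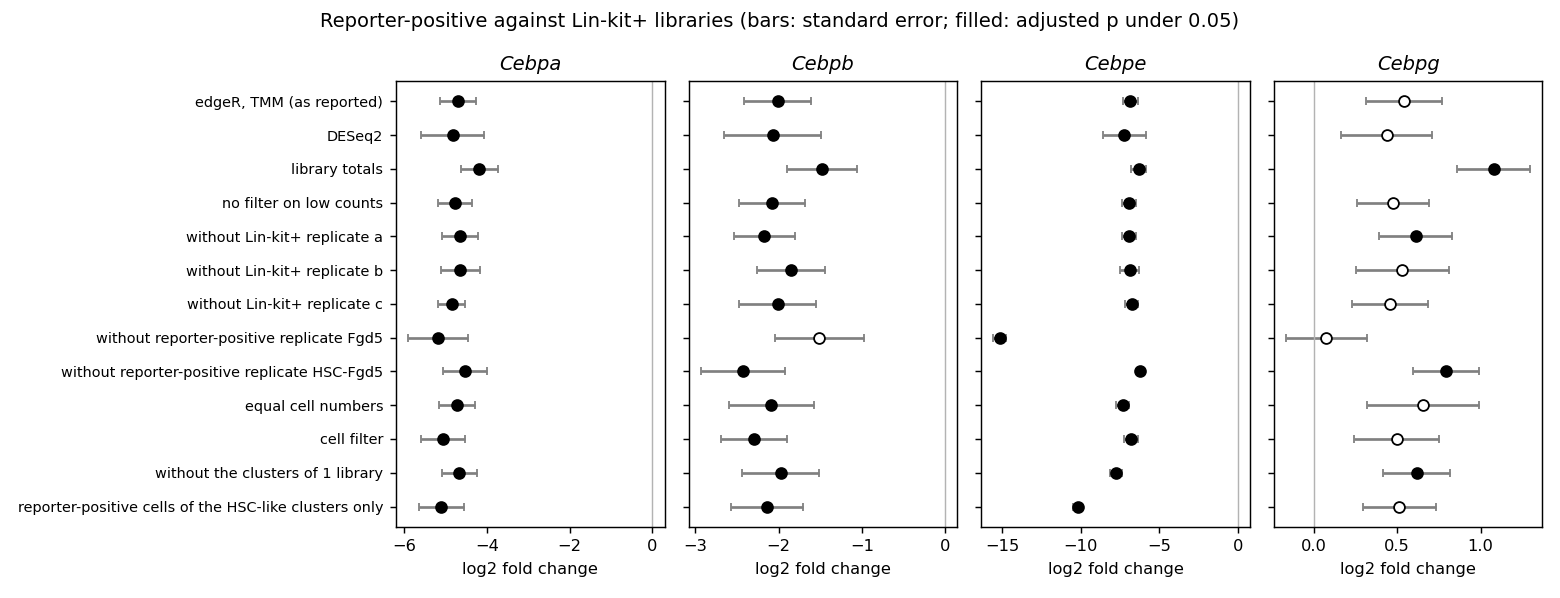
Log2 fold change of each member, reporter-positive against Lin-kit+ libraries, with its standard error, in the reported fit and in each alternative; filled points passed an adjusted p of 0.05. Cebpa and Cebpe were filled in every row, Cebpb was open in 1 row and Cebpg was filled in 4. Values near −10 and −15 for Cebpe come from fits whose reporter-positive counts are at or near 0, and they are no bound on the fold.

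The share of cells with a transcript followed the same order. In the Lin-kit+ libraries, 35.9% ± 1.72 of cells (SD, n = 3) had a Cebpe UMI, 6.48% ± 2.34 a Cebpa UMI, 2.42% ± 0.11 a Cebpb UMI and 7.0% ± 2.44 a Cebpg UMI. After each cell was thinned to 1200 UMIs, which left out 65 Lin-kit+ cells and 56 HSC-Fgd5+ cells, the shares were 20.4%, 1.51%, 0.38% and 1.43%. In erythroid-like Lin-kit+ cells, which should lack Cebpa and Cebpe, the thinned shares were 0.22% for Cebpa and 0.65% for Cebpe (924 cells, median depth 3237 UMIs before thinning). They were taken as the background that free RNA can leave in the Lin-kit+ libraries. The reporter-positive libraries are separate and held less of both transcripts, so this background cannot be carried over to them. There the thinned share of Cebpa was 0.13% in Fgd5+ (95% Wilson interval 0.022 to 0.71%) and 0 of 463 cells in HSC-Fgd5+, which allows up to 0.65%. That of Cebpe was 0.25% (0.069 to 0.91%) in Fgd5+ and again 0 cells in HSC-Fgd5+. For Cebpg the thinned share was 3.66% in Fgd5+ (95% Wilson interval 2.56 to 5.20%) and 1.73% in HSC-Fgd5+ (0.88 to 3.37%), against 1.20 to 1.72% in the Lin-kit+ libraries. Wilson intervals cover counting error only.

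Between the 2 reporter-positive gates there was no replicate and so no test. Cebpg stood at 31.4 CPM (131 UMIs) in Fgd5+ and 19.4 CPM (42 UMIs) in HSC-Fgd5+, a ratio of 1.62 with an exact 95% counting interval of 1.14 to 2.35. The ratio was 1.56 (1.09 to 2.27) among cells of the HSC-like clusters. These reporter-positive cells formed 2 clusters, 1 of 1218 cells and 1 of 71 that was led by histone and division genes. Cebpg was higher in the dividing cluster in both libraries, at 46.9 against 28.6 CPM in Fgd5+ and at 33.7 against 17.6 CPM in HSC-Fgd5+, although the dividing cells gave only 22 and 9 UMIs. Cebpa, Cebpb and Cebpe had 3, 9 and 2 UMIs in both clusters together.

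To follow the family through differentiation, Lin-kit+ cells were clustered without the C/EBP genes and named from marker lists. The classes were set from the same cells' expression, so levels are given as descriptions over the 3 libraries, with no test between classes. The order of the classes differed for each gene.

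Cebpe was highest along the neutrophil line. Late neutrophil-like cells, defined by genes of secondary granules, gave 997, 965 and 1027 CPM in libraries a, b and c (mean 996 ± 31.1 CPM, SD, n = 3), and early neutrophil-like cells, defined by primary granule genes, gave 514, 464 and 513 CPM (mean 497 ± 28.6 CPM). The ranges of these neighbours did not overlap. The late class was named by markers that include Cebpe-dependent granule genes, so this difference was partly built in. Monocyte-like cells gave 14.5 ± 3.95 CPM, basophil or mast-like cells 22.8 ± 6.12 CPM, and erythroid-like, dendritic-like, lymphoid-primed-like and megakaryocyte-like cells between 1.66 and 4.35 CPM on average. The last 4 were not separated from each other by their spread. Of all Cebpe UMIs in the Lin-kit+ libraries, 61.7% lay in late and 32.8% in early neutrophil-like cells, which made up 17.2% and 16.4% of the cells. After thinning, 69.7% of late neutrophil-like cells kept a Cebpe UMI (95% Wilson interval 67.6 to 71.6%) and 43.5% of early ones (41.2 to 45.7%), so the transcript was detected in most late cells at a modest depth.

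Cebpa had its highest level elsewhere. Basophil or mast-like cells gave 75.7, 58.2 and 26.3 CPM (mean 53.4 ± 25.1 CPM, SD, n = 3), with library c well below the other two, and all 3 values lay above every other class with more than 21 cells. Early neutrophil-like cells (14.4 ± 1.32 CPM) and monocyte-like cells (13.8 ± 2.71 CPM) came next and overlapped each other. Late neutrophil-like cells gave 1.38, 1.94 and 1.70 CPM (mean 1.67 ± 0.28 CPM), below every library of the early class and within the spread of the erythroid-like cells (1.35 ± 0.50 CPM). Lymphoid-primed-like cells had 0 Cebpa UMIs in 436 cells. Among cells of low commitment, an unnamed Lin-kit+ cluster of 836 cells gave 13.5, 12.8 and 12 CPM of Cebpa. It raised 5 of 10 HSC markers with none among its 10 leading genes, and so stayed unnamed by the naming rule. It held 849 CPM of Mpo and 227 CPM of Cd48, which the reporter-positive HSC-like cells nearly lack (1.99 CPM of Mpo in the larger cluster). In a finer clustering (Leiden resolution 2), a cluster of 352 Lin-kit+ cells that shares the leading genes Vldlr, Wfdc17 and Paqr5 was named HSC-like. That cluster gave 17.1, 4.65 and 11.6 CPM of Cebpa.

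Cebpb had its highest class mean in monocyte-like cells, at 5.73, 9.78 and 8.31 CPM (mean 7.94 ± 2.05 CPM, SD, n = 3). These cells were 23.9% of the Lin-kit+ cells and held 53.1% of the Cebpb UMIs. Their range overlapped that of early neutrophil-like cells (1.69 to 7.32 CPM) and of basophil or mast-like cells (3.53 to 6.31 CPM). The level was uneven within the class: the cluster led by Trem2 (1504 cells) gave 11.4 ± 2.45 CPM, while that led by Cnn3 (1066 cells) gave 3.13 ± 1.3 CPM, below the mean of early neutrophil-like cells (4.69 CPM). The leading genes of the latter hold the monocyte marker F13a1 but also Cnn3 and Lgmn. Both also lead a dendritic-like cluster of resolution 2 (first gene Siglech), which had 1 Cebpb UMI in 303 Lin-kit+ cells. Whether such cells lower the level was not tested. Dendritic-like and megakaryocyte-like cells had 0 Cebpb UMIs in 525 and 417 cells. At Leiden resolution 2, a finer clustering, a cluster of 276 monocyte-like cells led by Fn1 and Klf4 gave 19.6, 16.6 and 23.0 CPM of Cebpb, the highest of 7 monocyte-like clusters. The lowest, 267 cells led by H2-Eb1 and Cd74, had 0 Cebpb UMIs. Its leading genes hold no monocyte marker but the dendritic markers Cd74, H2-Aa and H2-Ab1, which also lead the dendritic-like cluster, so its name is unsure. Of the other monocyte-like clusters, 4 had means from 3.85 to 9.11 CPM, and the cluster that came almost wholly from Lin-kit+ a had 5.84 CPM there. Klf4 is a factor of monocyte differentiation and Fn1 encodes fibronectin.

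Cebpg was the most even member. Its class means ran from 5.19 ± 1.49 CPM in late neutrophil-like cells to 25.6 ± 14.4 CPM in dendritic-like cells (SD, n = 3). In dendritic-like cells library a (42.2 CPM) stood well above b and c (15.6 and 19 CPM). The high mean did not hold for all cells named dendritic-like. At Leiden resolution 2, the dendritic-like cluster led by Siglech (303 Lin-kit+ cells) gave 10.3 to 14.3 CPM of Cebpg over the libraries. The dendritic-like cluster led by Ifi205 (258 Lin-kit+ cells) gave 20.9 to 44.2 CPM. Monocyte-like cells gave 16.9 ± 1.77 CPM, lymphoid-primed-like cells 14.7 ± 2.72 CPM, megakaryocyte-like cells 13.6 ± 5.55 CPM and erythroid-like cells 10.7 ± 2.90 CPM, and the ranges of neighbours in this order overlapped. Late neutrophil-like cells (4.19 to 6.91 CPM) lay below all libraries of the monocyte-like, erythroid-like and dendritic-like cells. CPM are shares of all UMIs, and abundant granule transcripts lower the CPM of every other gene. The late neutrophil markers summed to 250830, 405110 and 425570 CPM in the late neutrophil-like clusters led by Il1r2, Ltf and Ifitm6. Their part in the low Cebpg values was not tested.

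**Figure D3:**
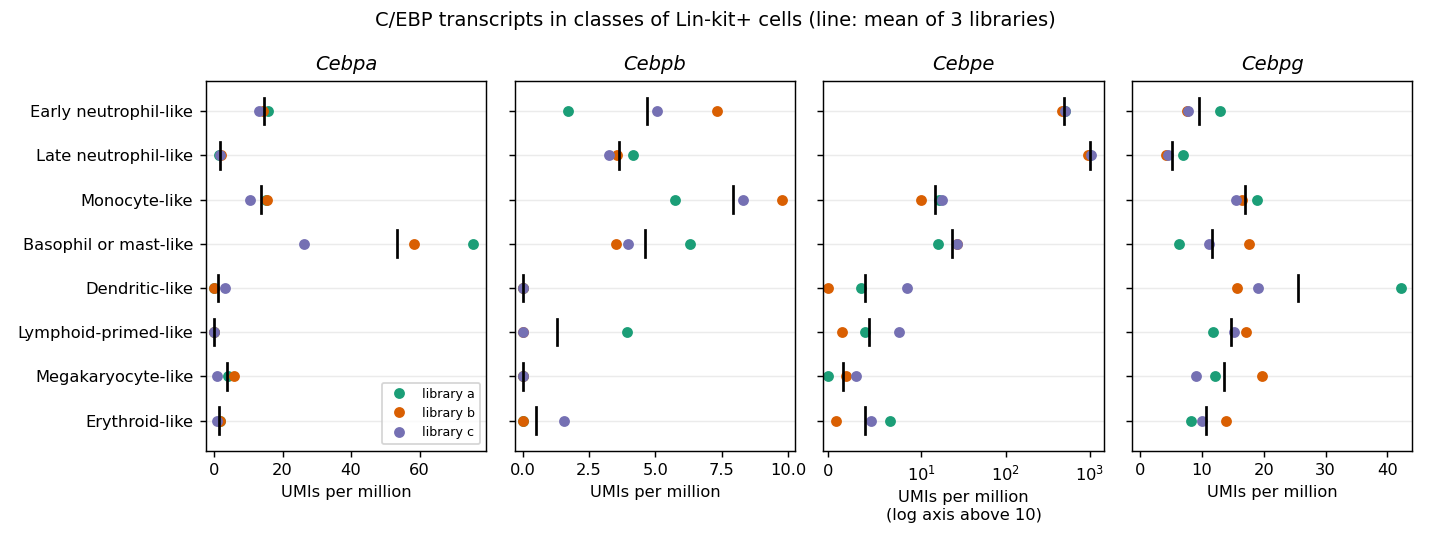
CPM of each C/EBP gene in 8 classes of Lin-kit+ cells, with a point for each library and a line at their mean; the axis of Cebpe is logarithmic above 10. Cebpe stands out in both neutrophil classes, and Cebpa in basophil or mast-like cells, while the points of Cebpb in monocyte-like cells overlap those of 2 other classes and the points of Cebpg overlap between most classes.

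Eosinophils, a further cell type that needs Cebpe, were seen as 21 Lin-kit+ cells at resolution 2, with 3, 10 and 8 cells in libraries a, b and c. The cluster was led by Prg2, Epx and Prg3, which encode eosinophil granule proteins. It gave 661, 1007 and 1576 CPM of Cebpe (mean 1081 ± 462 CPM, SD, n = 3), which spans the level of late neutrophil-like cells. Of its cells 90.5% had a Cebpe UMI, 2 UMIs of Cebpa were found in all, and Cebpb had 0. These cells were kept out of the basophil or mast-like class above. Left in, as under resolution 0.5, doublet removal or the cell filter, they raise that class to between 61.7 and 66.4 CPM of Cebpe.

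The same clustering divided the basophil or mast-like cells. A cluster of 423 cells led by Prss34 and Mcpt8, proteases of basophils, gave 79.0, 69.2 and 32.1 CPM of Cebpa. A cluster of 109 cells led by Gzmb and Scin gave 0, 0 and 5.31 CPM, which is 1 Cebpa UMI in all. The ranges did not overlap. Cebpe was at 14.4, 25.1 and 34.2 CPM in the first and rested on 3 UMIs in the second.

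**Figure D4:**
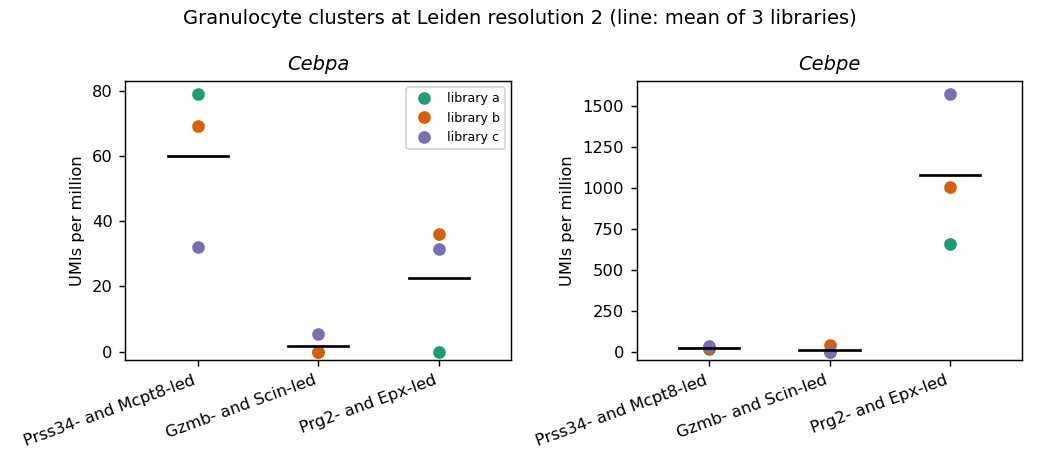
CPM of Cebpa (left) and Cebpe (right) in the 3 granulocyte clusters of Leiden resolution 2, with a point for each Lin-kit+ library and a line at the mean. Cebpa is high in the cluster led by Prss34 and Mcpt8 and near 0 in that led by Gzmb and Scin, and Cebpe is high in the eosinophil-like cluster of 21 cells.

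The neutrophil line was resolved into 7 clusters, ordered by the summed level of the late neutrophil markers and not by any C/EBP gene. Several of those markers (Ltf, Camp, Ngp, Lcn2, Chil3, Cd177 and Mmp8) are also counted below as Cebpe-dependent granule genes. A higher Cebpe level later in the order was thus partly built in. The order began with 2 unnamed clusters that had Cd34 and Mpo among their leading genes. They were followed by 2 early neutrophil-like clusters led by Gfi1 and Vcam1 and 3 late neutrophil-like clusters led by Il1r2, Ltf and Ifitm6. Irf8, which favours monocytes and dendritic cells, was at 113, 507 and 27.1 CPM in the Cd34, Mpo and Gfi1-led clusters. The place of the Mpo cluster on the neutrophil line is therefore not settled. The early neutrophil-like cluster that came almost wholly from Lin-kit+ a, and a late neutrophil-like cluster of 37 cells, were left out. Elane, a primary granule protease, stood highest at 31456 CPM in the Vcam1-led cluster and was at 6411 CPM in the Ltf-led one, and Ltf, the secondary granule protein lactoferrin, went from 4.43 to 103 and then 2617 CPM over the Vcam1-, Il1r2- and Ltf-led clusters.

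Cebpe stood at 81.6 ± 13.6 CPM (SD, n = 3) in the Cd34 cluster and 51.3 ± 6.27 CPM in the Mpo cluster. It then reached 332 ± 18.9 CPM in the Gfi1-led cluster, where Gfi1, a repressor required for neutrophils, was at 28.7 CPM, and 711 ± 17.8 CPM in the Vcam1-led cluster. The late clusters gave 936 ± 68.8, 1128 ± 62.8 and 862 ± 39.0 CPM in order. In each library the Ltf-led cluster was the highest, and its 3 values (1069 to 1194 CPM) did not overlap those of the Ifitm6-led cluster (817 to 889 CPM). The Ltf-led cluster also held more transcript of the division genes Top2a (374 against 121 CPM) and Mki67 (132 against 68.3 CPM), and its cells were deeper (median 5621 against 4566 UMIs). Their part in the difference was not tested.

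Cebpa ran in the opposite direction over these clusters. It was level in the first 3, at 16.4 ± 1.97, 19.8 ± 5.59 and 18.5 ± 1.54 CPM, and lower in the Vcam1-led cluster, where library a (15.5 CPM) stood above b and c (7.61 and 8.48 CPM). In the 3 late clusters it was at 2.71 ± 2.43, 1.04 ± 0.60 and 1.72 ± 1.68 CPM, from 10, 4 and 4 UMIs. Cebpe was thus at 332 CPM already in the Gfi1-led cluster, where Cebpa was still at the level of the clusters before it. Cebpg went from 17.9 ± 3.36 CPM in the Cd34 cluster to 11.3 ± 0.30, 9.84 ± 2.69, 7.18 ± 1.55, 6.55 ± 1.33, 4.71 ± 3.72 and 3.79 ± 3.40 CPM. The late markers summed to 72914 CPM in the Vcam1-led cluster and to between 250830 and 425570 CPM in the late ones. That share of the total lowers the CPM of other genes, and its part in the Cebpg values was not tested. Cebpb was at 1.20 ± 2.08 CPM in the Cd34 cluster (2 UMIs), highest on average in the Vcam1-led cluster at 5.16 ± 1.53 CPM and at 2.12 ± 1.12 CPM in the Ifitm6-led one. The values of the Vcam1-led cluster (3.87 to 6.85 CPM) lay above all 3 values of both, and overlapped those of the clusters between.

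**Figure D5:**
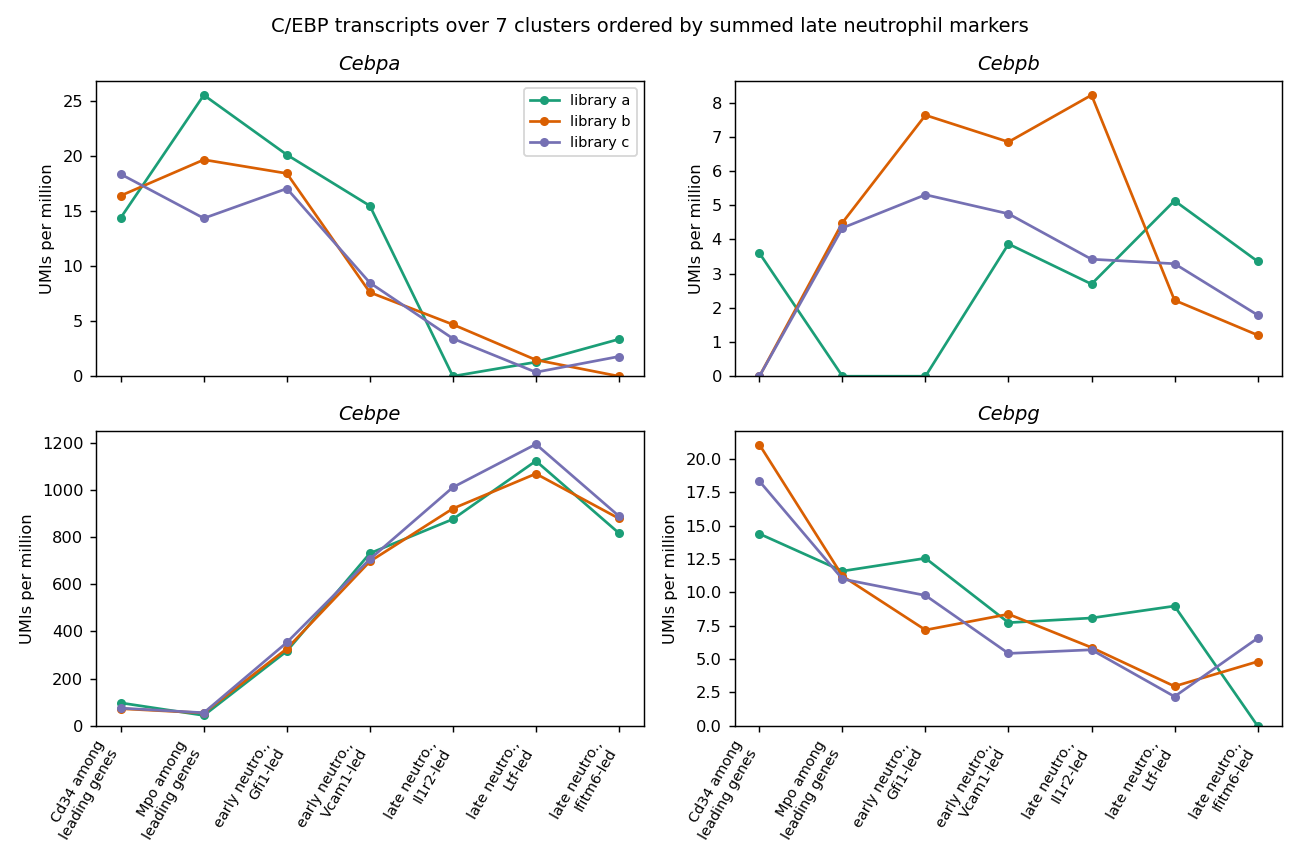
CPM of each C/EBP gene over 7 clusters of Lin-kit+ cells, ordered by their summed late neutrophil markers, with a line for each library and linear axes from 0. Cebpe climbs from the Gfi1-led cluster to the Ltf-led one in all 3 libraries while Cebpa goes from 14.3 to 25.5 CPM in the Mpo cluster to at most 4.70 CPM in the late ones.

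Genes whose level across 16 clusters was most like that of a member were sought among 6801 genes (Pearson's r of log2(CPM + 10)). The points share their libraries and their low counts, so r is a description. For Cebpe the closest were Scnn1a (0.97), Pglyrp1 (0.96), Prkcb (0.96), Mrgpra2b (0.96) and Mrgpra2a (0.96), of which Pglyrp1 encodes an antibacterial granule protein. For Cebpa they were Papss2 (0.89), Cdadc1 (0.88), Edem2 (0.85), Gm13251 (0.83) and Ssr3 (0.83). For Cebpb they were Atp6v1b2 (0.84), Slc35c1 (0.83), Pcyox1 (0.82), Atp6v1a (0.82) and Lamp2 (0.82), of which both Atp6v1 genes encode subunits of the vacuolar proton pump and Lamp2 a lysosomal membrane protein. For Cebpg they were Pigf (0.95), Ankfy1 (0.93), Apobec3 (0.93) and Atp5f1 (0.92). Among the members themselves, Cebpe and Cebpg had an r of −0.74, and Cebpa and Cebpe one of 0.04. Granule transcripts that are abundant where Cebpe is high lower the CPM of other genes there, and their part in these r was not tested.

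The partners, regulators and targets of the family were counted in the comparison of reporter-positive with Lin-kit+ libraries, by lists whose genes were chosen with earlier results in view. The median log2 fold change over all 11991 genes was 0.07, and each count is to be read against the 32.7% of all genes called higher and the 30.4% called lower. Of 12 early C/EBP target genes, 11 fell and 0 rose (30.4% and 32.7% over all genes), with a median of −3.19. Elane went from 8655 ± 409 CPM (SD, n = 3) to 54.7 and 2.77 CPM and Ctsg, the protease cathepsin G, from 2884 ± 175 CPM to 34.1 and 5.08 CPM, with adjusted p of 0.00018 and 4.66e-05 in edgeR's test. Of the 234 Elane UMIs in the reporter-positive libraries, 222 lay in the single early neutrophil-like Fgd5+ cell described above. Without the clusters of 1 library, which removes that cell, the log2 fold change went from −8.62 to −12.95 for Elane and from −7.58 to −10.68 for Ctsg. Csf2ra, a chain of the GM-CSF receptor, was not called (log2 −0.11).

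Of 15 Cebpe-dependent granule genes listed, 13 were tested and 13 fell (30.4% over all genes), with a median of −6.28. Without edgeR's filter on low counts, 13 of 15 fell. A gene with counts at or near 0 in the reporter-positive libraries, such as Prg2, passes that filter only through the Lin-kit+ libraries. Its direction was thus set in advance, and the count is a description. The median was −10.83 without Fgd5+, −11.37 with equal cell numbers and −11.50 with HSC-like reporter-positive cells only. Several of these genes have counts at or near 0 there, so these medians are no bound. Fcnb, the granule lectin whose promoter window is shown above, went from 662 ± 62.5 CPM to 3.84 and 0 CPM (adjusted p = 8.06e-06, edgeR). Prg2, an eosinophil granule protein, stood at 151 ± 28.8 CPM and at 0 UMIs in both reporter-positive libraries, which makes it at least 318-fold lower, against 3 counts over the group.

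Of 16 genes listed as other leucine zipper partners, 10 rose and 3 fell (32.7% and 30.4% over all genes), with a median of 0.66. Those that rose include Fos, Fosb, Jun and Junb, which are counted again below among the immediate early genes that also respond to cell handling. Hlf, a factor of stem cell maintenance, was at 8.74 ± 0.35 CPM in Lin-kit+ and at 303 and 306 CPM in the reporter-positive libraries, and Tef, its relative, went from 1.95 ± 0.45 to 12.2 and 7.85 CPM. Batf3, a factor of dendritic cells, went from 6.84 ± 1.69 to 0.720 and 0 CPM, and Nfil3 from 2.53 ± 0.81 to 1.44 and 0.462 CPM. Adjusted p were 6.56e-07, 0.0012, 9.94e-04 and 0.026 in edgeR's test, and the call of Nfil3 was lost with library totals or without any of 3 libraries (Lin-kit+ b, Fgd5+ or HSC-Fgd5+). Ddit3, which blocks C/EBP binding as a partner, rose by 0.51 on the log2 scale, and Atf4, the stress factor that pairs with Cebpg, fell by 0.55 on that scale. Cebpz, in the list by its name although not a leucine zipper protein, was not called (−0.02). Without Fgd5+ the count was 6 higher and 2 lower of 17, and with library totals it was 12 higher and 1 lower of 16, where 6586 of all 11991 genes were higher and 1993 lower.

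Of 10 regulators of C/EBP proteins, 5 rose and 3 fell, the latter near the 30.4% of all genes that fell. Trib3, a pseudokinase induced by Atf4 and Ddit3, was at 0.292 ± 0.13 CPM in Lin-kit+ and at 24.9 and 31.8 CPM in the reporter-positive libraries (log2 5.88 ± 0.29, SE; adjusted p = 6.90e-06, edgeR). Trib1, which brings Cebpa protein to degradation, went from 1.65 ± 0.19 to 9.84 and 7.85 CPM. Trib2, which does the same, was not called (0.35). Calr, which can hold back translation of C/EBP transcripts, went from 1185 ± 61.4 to 503 and 497 CPM. Hnrnpk was called lower (−0.54) with TMM although its CPM overlapped between the groups (561 to 654 against 588 and 623), and with library totals it was not called. With those totals 6 of the 10 regulators were higher and 1 lower.

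Of 12 myeloid factors that act with the family, 4 rose and 6 fell, the former near the 32.7% of all genes that rose. Their median was −0.21. It turned to 0.33 with library totals, where the median of all genes was 0.60, and was −0.016 without Lin-kit+ a (6 higher) and −0.42 without Lin-kit+ c. Irf8, which favours monocytes and dendritic cells, went from 418 ± 21.7 to 14.9 and 6.46 CPM, and Gfi1 from 7.47 ± 0.19 to 1.68 and 0.923 CPM. Zfpm1, a cofactor of Gata1, went from 1.06 ± 0.59 to 25.9 and 7.85 CPM, and Egr1, an early response factor, from 6.63 ± 1.06 to 47.7 and 60 CPM. Spi1, which encodes PU.1 and shares many sites with C/EBP proteins, was not called (0.03). Its levels were 95.4 and 89.6 CPM in the 2 HSC-like clusters that hold most reporter-positive cells. In the 2 clusters of Lin-kit+ a it was at 195 CPM (monocyte-like) and 211 CPM (early neutrophil-like). The monocyte-like clusters led by Trem2 and Cnn3 had 40.4 and 36.0 CPM, and the dendritic-like cluster 109 CPM. The 6 clusters ordered after the Cd34 cluster had 34.7 to 49.8 CPM.

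Of 15 amino acid response genes that Atf4 drives with Cebpg or Cebpb, 5 rose and 5 fell, both near the shares over all genes (32.7% and 30.4%), with a median of −0.32 that turned to 0.21 with library totals. Besides Trib3, Nupr1, a small stress protein, went from 2.91 ± 0.60 to 88.3 and 116 CPM, and in the other direction Mthfd2, an enzyme of mitochondrial folate metabolism, went from 51.0 ± 2.44 to 11 and 6.46 CPM and Psat1, an enzyme of serine synthesis, from 69.8 ± 2.44 to 45.3 and 44.3 CPM. Of 13 immediate early genes, which also respond to cell handling, 11 rose and 1 fell (32.7% and 30.4% over all genes), and 7 rose without Fgd5+ or without HSC-Fgd5+. Nr4a1 went from 1.24 ± 0.26 to 9.84 and 13.4 CPM and Dusp1, a phosphatase, from 6.98 ± 0.82 to 69.6 and 40.6 CPM, and Btg2, the gene that fell, from 38.3 ± 1.58 to 22.1 and 23.1 CPM. Cebpb, itself a gene that responds to stimulation, fell while these rose, and their part in its value was not tested.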

How the data were processed

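Mouse bone marrow cells of 5 sorted libraries were measured with the Chromium 3′ v2 kit. Per the submitters' processing notes, Cell Ranger 1.3 and 2.1, Seurat 2.3.4 and the build mm10 were used. The authors deposited whole-number UMI counts for each gene in each cell, and these raw counts were used as they are. Barcode suffixes with 793 and 519 cells were taken as Fgd5+ and HSC-Fgd5+ and the other 3 as Lin-kit+, by the study's cell numbers. Every cell was kept. Depth ran from 2166655 to 36080242 UMIs per library, which leaves sparse transcripts such as Cebpb undetected in most cells.

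The members, gene lists and marker lists were chosen with earlier results of these data known. Library sums of the counts entered edgeR 4.0.16 in R 4.3.3 (TMM, filterByExpr, quasi-likelihood test, Benjamini-Hochberg over 11991 genes, threshold 0.05), and the script was tested on simulated data. DESeq2 1.42.0, library totals, no filter, equal cell numbers, a filter on cells (at least 1000 UMIs and under 10% mitochondrial) and each library left out were alternatives. Cells were clustered without the C/EBP genes and Fgd5 (2000 variable genes, 20 components, 15 neighbours, Leiden resolution 1, 22 clusters, scanpy 1.11.5). A cluster was named from 13 marker lists if 3 or more markers were raised 2-fold and found in 5% of its cells. A tie went to the list with more genes among the 10 leading ones, and a cluster with at most 5 of 10 markers and none among those genes stayed unnamed. These thresholds were set after the clusters were seen. Scrublet called 154 cells doublets (1.19%), which were kept except in an alternative. Eosinophil-like cells were taken from resolution 2. CPM per class were summed per library, and shares were also computed after thinning each cell to 1200 UMIs. The genes named from each of 7 lists were up to 2 each way, ranked by the size of the log2 fold change among called genes with 100 UMIs or more, and for each member the 5 genes most like it, of which 1 is not reported here. Other genes were named after their values were seen.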

Additional observations from a re-analysis of the deposited data

How the results depend on the processing

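Cebpa and Cebpe kept their direction and their call in all 12 other fits. With library totals the counts over all genes were 6586 higher and 1993 lower. Leaving out 1 library in turn gave log2 fold changes from −2.43 to −1.51 for Cebpb and from 0.078 to 0.79 for Cebpg. Cebpg came to 1.08 with library totals and to 0.62 without the clusters of 1 library. The cause was not tested. Cebpa in basophil or mast-like cells was at 82.0 CPM when cells were assigned by direct counting of their markers, and Cebpe in late neutrophil-like cells was at 1030 CPM with doublets removed. Thinning lowered the share of Lin-kit+ cells with a UMI to 1.51% for Cebpa, 0.38% for Cebpb, 20.4% for Cebpe and 1.43% for Cebpg, as fewer UMIs were drawn. Levels in the other classes moved by more than their spread in 26 instances and by less in the rest. Fits without the clusters of 1 library, or with reporter-positive cells of the HSC-like clusters only, were chosen after seeing the data. No paired analysis was possible because the labels and barcodes carry no replicate numbers, and numbers given in accession order pair no libraries. Depth limits the low members: the reporter-positive libraries held 4 UMIs of Cebpa and 10 of Cebpb.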
